A study of Mus musculus with 5 samples.

Results

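The stretch of chromosome 2 around *Celf1*, the gene deleted in these mice, was examined as a run of consecutive gene numbers in the deposited tables, which number genes along the chromosomes. *Celf1* and the clone-named feature next to it were left out, and of the other 827 gene numbers 204 reached at least 1 FPKM (fragments scaled to the length of the transcript and to the total of the library) in both replicates of a PN3 genotype and were tested. In the whole series 12502 genes passed that filter among 28416 listed. The rule uses gene order and expression level, not the difference between genotypes. Of the 204 genes, 87 come before *Celf1* and 117 after it, 197 passed the filter in both genotypes, 7 passed it in *Celf1* +/+ only and 0 in *Celf1* −/− only. The 7 could enter only through the genotype in which they were higher. The 623 gene numbers not tested include 502 at 0 FPKM in all 4 PN3 libraries. Names could be assigned to 46 of the 204 genes, 2 of which have a clone name only, and the other 158 are referred to by their distance from *Celf1*.

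Polyadenylated RNA was sequenced from cardiac ventricles of male mice, with blood and atria removed. The groups were *Celf1* −/− at postnatal day 3 (PN3, 2 libraries), *Celf1* +/+ at PN3 (2 libraries) and *Celf1* +/+ at PN38 (1 library). All animals were of a mixed strain, given as 129v/BL6 in the labels and as 129Sv/BL6 in the paper. They descended from heterozygous matings, and the deletion was carried in all tissues, not in the heart alone. The paper states that genotypes were compared between littermates, but which libraries share a litter is not given in the sources used here. Whether each library came from a single animal is not given in the sources used here, and with 2 libraries per genotype the p-values measure only the spread between these libraries.

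*Celf1* encodes a protein that binds GU-rich RNA. Proteins of its family act on the choice of exons and on how long transcripts last and how well they are translated. Genes that lie close to each other on a chromosome are inherited together, so in a mixed strain the alleles next to a deleted gene are mostly passed on with it. The strain of origin of chromosome 2 in each library was not measured here. The genes of the stretch are joined by position and not by function. They include receptors, enzymes of lipid metabolism, complement and cell surface proteins, sarcomere-associated proteins and genes of the cell cycle, and one large cluster of olfactory receptor genes lies among them.

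The targeted gene was checked first. *Celf1* (chr2:90780539-90859654 in mm9, plus strand, protein coding) measured 2.61 and 3.03 FPKM in the *Celf1* −/− libraries, 58.4 and 57.8 FPKM in *Celf1* +/+ of that age and 28.4 FPKM at PN38. Both *Celf1* −/− libraries were far below both *Celf1* +/+ libraries, and on the counts the log2 fold change was −4.21 (SE 0.0885, adjusted p = 0.000269, quasi-likelihood test of edgeR, Benjamini-Hochberg over all tested genes). The clone-named feature that follows it measured 3.02 and 3.10 FPKM against 55.4 and 57.0 FPKM, nearly the same drop. Depth ranged from 108044284 to 139769909 expected counts in a library. Markers of cardiac muscle were abundant in every PN3 library, with a summed FPKM of 2110 to 2830 for 3 named ventricular genes. Of these, *Ryr2* was lower without overlap, at 75.1 and 73.9 FPKM in *Celf1* −/− against 108 and 110 FPKM in *Celf1* +/+, while *Myh7* and *Tnni1* overlapped. Named markers of other cells also differed between the groups. Marker genes could be named only from lists of genes that differed in these same libraries, so their counts are not independent evidence. Of all tested genes, 30.3% were lower and 26.8% higher without overlap. The summed FPKM of 4 named erythrocyte genes, all 4 lower without overlap, was 2290 and 4900 in *Celf1* −/− against 7490 and 7220 in *Celf1* +/+. The 5 named atrial genes summed to 2620 and 3040 against 897 and 1420. Of these, *Nppa* measured 1857 and 1763 FPKM against 559 and 453 FPKM. *Nppa* and *Bmp10* were the 2 higher without overlap, while *Sln*, *Myl7* and *Myl4* overlapped. The lung gene *Scgb3a2* measured 1.52 and 7 FPKM against 0.05 and 0.12 FPKM. In bulk tissue, fewer cells of a type and less RNA per cell cannot be told apart.

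Across the stretch, 14 genes differed by at least 1.5 fold in mean FPKM with both libraries of a genotype beyond both of the other. Of these, 12 were lower in *Celf1* −/− (5.88% of the 204, beside 2.63% of all tested genes) and 2 were higher (0.980%, beside 1.40%). Of the 12, 3 had passed the filter in *Celf1* +/+ only. With a difference of any size, 70 genes were lower without overlap (34.3%, beside 30.3% of all tested genes) and 55 higher (27.0%, beside 26.8%). The share of lower genes at 1.5 fold was thus above that of all tested genes, while the shares without a fold threshold lay close to them. On mean FPKM, the median log2 ratio was −0.021 for the stretch and −0.020 for all tested genes. The sides differed in the counts without overlap, which were 23 lower and 29 higher of the 87 genes before *Celf1* (median log2 ratio 0.0071) and 47 lower and 26 higher of the 117 after it (median −0.048). This difference between the sides was not tested. The median absolute log2 ratio was 0.154 in the stretch and 0.136 over all tested genes, at a similar median level (12.1 and 11.8 FPKM).

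None of the 204 genes was called by the quasi-likelihood test at an adjusted p below 0.05 together with 1.5 fold. That test called few genes anywhere, 0.0480% of tested genes as lower and 0.00800% as higher, and the lowest adjusted p in the stretch was 0.0524, for *Cd59a*. At an unadjusted p below 0.05, 33 genes of the stretch were lower (16.2%, beside 11.6% of all tested genes) and 32 higher (15.7%, beside 12.1%). At an adjusted p below 0.2 the stretch held 58 genes (28.4%, beside 20.8% of all tested genes). The exact test of edgeR at an adjusted p below 0.05 with 1.5 fold called 10 genes lower (4.90%, beside 1.87% of all tested genes) and 2 higher (0.980%, beside 1.11%). DESeq2 called 7 lower (3.43%, beside 1.85%) and 2 higher (0.980%, beside 1.09%). The genes lower by unadjusted p, exact test and DESeq2 include some that passed the filter in *Celf1* +/+ only. Such genes among the lower calls were *Osbpl6* by the exact test and DESeq2, and a feature that lists *Mir670* by the exact test. The count of lower genes without overlap held between 11 and 14 when any single library was left out, whereas the count of higher genes, 2, went to 7 without *Celf1* +/+ replicate 1 and to 1 without *Celf1* +/+ replicate 2.

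**Figure D1:**
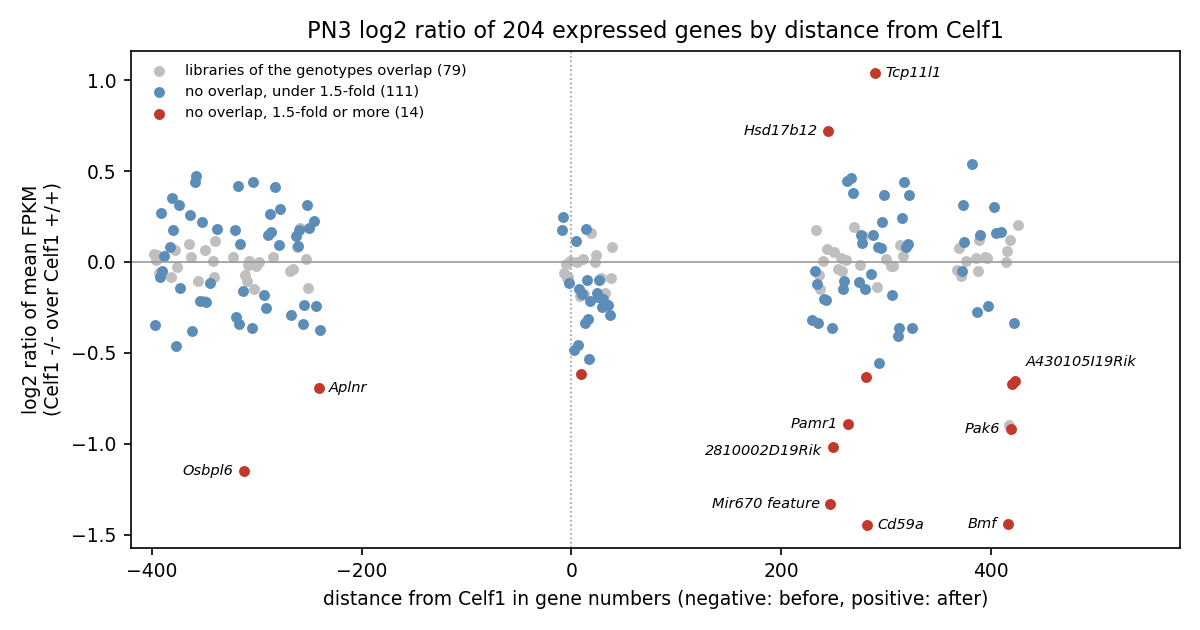
The log2 ratio of mean FPKM (*Celf1* −/− over *Celf1* +/+, y axis) of each of the 204 genes at PN3 is plotted against its distance from *Celf1* in gene numbers (x axis, *Celf1* at 0). Red points are the 14 genes at least 1.5 fold apart without overlap between the libraries of the genotypes, of which 12 lie below 0 and most lie more than 200 gene numbers after *Celf1*.

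The differences were not largest next to *Celf1*. The 8 tested genes within 50 gene numbers before it differed by at most 1.19 fold, with a median log2 ratio of −0.034, 1 gene lower without overlap and 2 higher. *Fnbp4*, which encodes a formin-binding protein and lies 0.159 Mb before *Celf1*, measured 12.1 and 12.6 FPKM in *Celf1* −/− against 12.0 and 13.7 FPKM in *Celf1* +/+. The immediate upstream neighbour, unnamed, measured 28.6 and 26.7 FPKM against 29.1 and 25.9 FPKM. The groups overlapped for both genes.

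Of the 30 tested genes within 50 gene numbers after *Celf1*, 17 were lower without overlap (56.7%, beside 30.3% of all tested genes) and 2 were higher (6.67%, beside 26.8%), and the median log2 ratio was −0.17, but only 1 reached 1.5 fold. Among the 17, the unnamed gene 17 gene numbers after *Celf1* had passed the filter in *Celf1* +/+ only. At an unadjusted p below 0.05, 8 of the 30 were lower and 1 was higher, beside 11.6% and 12.1% of all tested genes. *Rapsn* (chr2:90875777-90885886, plus strand), which encodes rapsyn, the protein that clusters acetylcholine receptors at the neuromuscular junction, starts 0.016 Mb after the end of *Celf1*. It measured 15.7 and 12.7 FPKM in *Celf1* −/− against 18.8 and 20.9 FPKM in *Celf1* +/+, and 10.7 FPKM at PN38. The *Celf1* −/− libraries were both lower, with a log2 fold change of −0.46 (SE 0.129, adjusted p = 0.148, quasi-likelihood test) and an adjusted p of 0.0281 in the exact test.

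The one gene here past 1.5 fold is unnamed, 9 gene numbers after *Celf1*, with 1.52 and 1.34 FPKM in *Celf1* −/− against 1.95 and 2.43 FPKM in *Celf1* +/+. Its ratio of 1.53 was the smallest above the threshold, and the largest below it was 1.47 for *Prrg4*. The most abundant gene beside *Celf1*, unnamed and 7 gene numbers after it, measured 1011 and 1047 FPKM against 1165 and 1119 FPKM, a ratio of 1.11 without overlap. *Ddb2*, a DNA damage recognition factor, *Zfp408*, a zinc finger protein, *Arhgap1*, a GTPase activating protein, and *Mdk*, the growth factor midkine, all had overlapping libraries. *Mdk* measured 65.0 and 74.6 FPKM against 67.3 and 81.0 FPKM. Of the 2736 exon bases of *Ddb2*, 652 are shared with *Acp2* on the other strand, and the library kit does not separate strands.

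**Figure D2:**
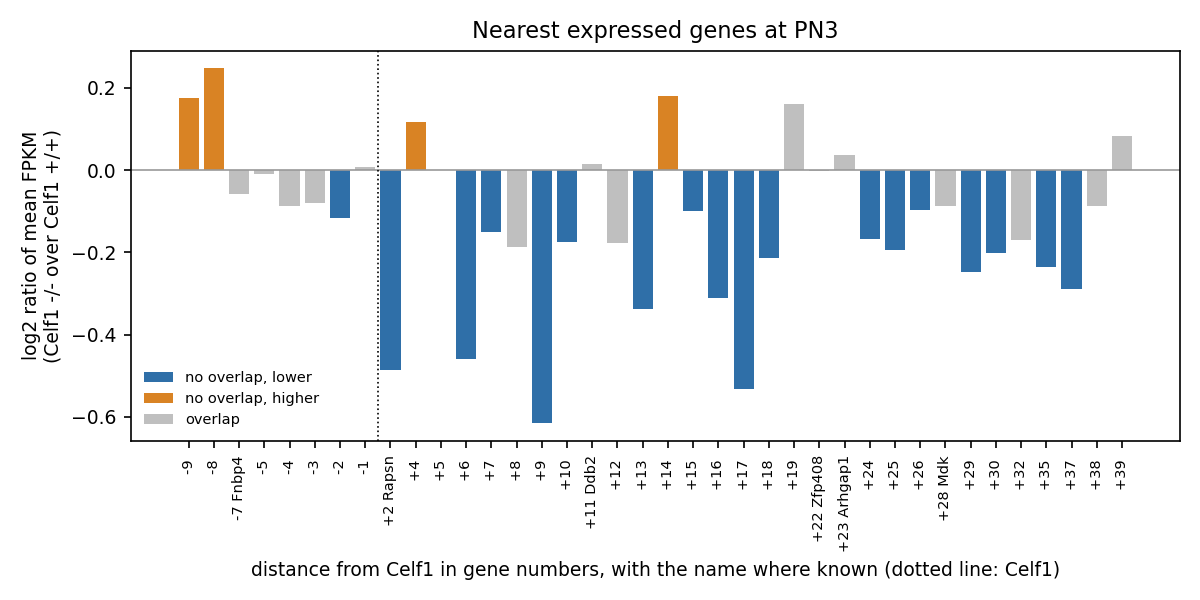
Bars give the log2 ratio of mean FPKM (*Celf1* −/− over *Celf1* +/+) of the 8 tested genes before and the 30 after *Celf1* within 50 gene numbers, in order, each from 2 libraries per genotype. Blue bars (17 after, 1 before) are lower without overlap, orange bars (2 after, 2 before) higher without overlap and grey bars overlap. The lowest bar, 9 gene numbers after *Celf1*, is at −0.61.

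Between these neighbours and the rest of the stretch lie 2 gaps with few tested genes. The gap before *Celf1*, between *Lrrc55* and *Fnbp4*, spans 232 gene numbers with 2 tested, and GENCODE places 268 genes with *Olfr* names, the olfactory receptors, in it. The gap after *Celf1*, between *Mdk* (0.91 Mb after *Celf1*) and *Chst1* (1.58 Mb after it), spans 200 gene numbers with 7 tested. Of its features, 189 have a listed length of at most 114 bases (median 35), with an effective length and an expected count listed as 0 in every library. No gene between 51 and 200 gene numbers from *Celf1* was tested on either side.

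Most genes past 1.5 fold lay beyond the second gap. From over 200 to 300 gene numbers after *Celf1*, 45 genes were tested, of which 5 were at least 1.5 fold lower without overlap (11.1%, beside 2.63% of all tested genes) and 2 higher (4.44%, beside 1.40%). Beyond 300, to the end of the stretch, 42 genes were tested, of which 4 were lower (9.52%) and 0 higher. Before *Celf1*, 1 of 28 tested genes at a distance of over 200 to 300 and 1 of 51 beyond 300 was lower (3.57% and 1.96%), and 0 were higher. In all, 10 of the 12 lower genes and both higher genes came after *Celf1*. Some of the lower genes had passed the filter in *Celf1* +/+ only. They were *Osbpl6* (beyond 300 before *Celf1*), a feature that lists *Mir670* (over 200 to 300 after it) and an unnamed gene 420 after it. The shares of these bins include them.

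Promoters are printed for the 4 genes of the 14 that carry a name and have exactly 1 RefSeq promoter listed (250 bases before to 50 after the transcription start, GRCm38.p6), to show the sequence context in which neighbouring genes differed in opposite directions. Each one matched mm9 at a single place, given here: *Hsd17b12* at chr2:93998017-93998316 on the minus strand, *2810002D19Rik* at chr2:94246614-94246913 on the plus strand, *Cd59a* at chr2:103935708-103936007 on the plus strand and *Tcp11l1* at chr2:104552270-104552569 on the minus strand. Capitals mark CCAAT and GGGCGG, or their reverse complements, and TATAAA and CACGTG were searched as well on both strands.
Hsd17b12: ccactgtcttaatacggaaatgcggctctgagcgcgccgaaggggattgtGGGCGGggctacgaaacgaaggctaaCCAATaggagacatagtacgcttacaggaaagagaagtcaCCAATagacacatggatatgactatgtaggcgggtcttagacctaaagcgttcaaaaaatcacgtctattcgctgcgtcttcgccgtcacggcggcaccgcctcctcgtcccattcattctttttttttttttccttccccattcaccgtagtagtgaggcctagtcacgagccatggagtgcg
2810002D19Rik: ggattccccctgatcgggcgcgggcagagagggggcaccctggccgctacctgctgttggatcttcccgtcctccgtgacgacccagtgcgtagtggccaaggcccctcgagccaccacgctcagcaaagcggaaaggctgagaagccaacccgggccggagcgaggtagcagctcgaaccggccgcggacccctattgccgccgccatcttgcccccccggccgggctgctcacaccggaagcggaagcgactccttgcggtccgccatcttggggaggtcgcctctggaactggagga
Cd59a: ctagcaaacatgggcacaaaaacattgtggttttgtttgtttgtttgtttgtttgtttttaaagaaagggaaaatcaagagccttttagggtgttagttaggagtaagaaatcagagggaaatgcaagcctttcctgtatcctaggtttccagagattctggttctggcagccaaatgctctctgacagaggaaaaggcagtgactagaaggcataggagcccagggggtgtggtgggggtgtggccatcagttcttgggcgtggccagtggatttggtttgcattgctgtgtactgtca
Tcp11l1: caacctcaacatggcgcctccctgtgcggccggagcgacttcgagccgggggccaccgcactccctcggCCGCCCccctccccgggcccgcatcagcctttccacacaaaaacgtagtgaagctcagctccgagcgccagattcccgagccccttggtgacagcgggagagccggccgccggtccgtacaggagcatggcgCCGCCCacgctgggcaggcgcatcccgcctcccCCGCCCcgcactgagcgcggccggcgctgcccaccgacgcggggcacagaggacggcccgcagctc
CCAAT was found 2 times and GGGCGG 1 time in the *Hsd17b12* promoter, GGGCGG 3 times in the *Tcp11l1* promoter, and none of the 4 motifs in those of *Cd59a* and *2810002D19Rik*. Among 32851 RefSeq promoters of that length, 37.4% hold CCAAT, 35.7% GGGCGG, 13.6% TATAAA and 7.15% CACGTG. The *Cd59a* promoter has 1 CpG, against 23 in *Hsd17b12*, 28 in *2810002D19Rik* and 36 in *Tcp11l1*, with a median of 7 over all promoters. Both genes that were higher in *Celf1* −/− have CpG-rich promoters, as does *2810002D19Rik*, which was lower. The RefSeq promoter of *2810002D19Rik* lies within the GENCODE span of that gene, which starts at chr2:94246308, so RefSeq and GENCODE place its start differently.

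*Cd59a* (chr2:103935958-103955511, plus strand, 13.1 Mb after *Celf1*) showed the largest ratio of the stretch. It encodes the membrane-anchored inhibitor of the complement membrane attack complex. It measured 11.5 and 13.6 FPKM in *Celf1* −/− against 31.1 and 37.4 FPKM in *Celf1* +/+, a ratio of 2.73, and 85.9 FPKM at PN38. Each *Celf1* +/+ library was more than 2 times either *Celf1* −/− library. The log2 fold change was −1.43 (SE 0.113, adjusted p = 0.0524, quasi-likelihood test), and the exact test gave an adjusted p of 1.4e-21. The quasi-likelihood test also called *Cd59a* with the replicate number as a block (log2 fold change −1.43), without *Celf1* −/− replicate 2 (−1.53) and without *Celf1* +/+ replicate 1 (−1.54). *Cd59b*, a paralog with a similar sequence, lies nearby on chromosome 2, and fragments shared between them were split by the authors' estimate, so the level of *Cd59a* is uncertain to that extent. CD59 is also found on erythrocytes, whose 4 named genes were lower in *Celf1* −/− with the sums given above. Their part in the *Cd59a* difference was not tested.

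*Hsd17b12* (chr2:93872846-93998121, minus strand, 3.01 Mb after *Celf1*), an enzyme of long chain fatty acid elongation, was the more abundant of the 2 genes that were higher. It measured 35.2 and 31.3 FPKM in *Celf1* −/−, 22.2 and 18.2 FPKM in *Celf1* +/+ at PN3 and 18.1 FPKM at PN38, with a log2 fold change of 0.74 (SE 0.133, adjusted p = 0.105, quasi-likelihood test). The exact test gave an adjusted p of 6.12e-05. *Tcp11l1* (chr2:104497445-104552326, minus strand, 13.6 Mb after *Celf1*) measured 2.31 and 2.39 FPKM in *Celf1* −/− against 1.24 and 1.05 FPKM in *Celf1* +/+, and 0.59 FPKM at PN38. Its log2 fold change was 1.09 (SE 0.140, adjusted p = 0.0797, quasi-likelihood test). Both *Celf1* −/− libraries were above both *Celf1* +/+ libraries for each gene.

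Features close to these genes differed the other way. A noncoding feature that lists *Mir670* among its names, 2 gene numbers after *Hsd17b12*, measured 0.89 and 0.76 FPKM in *Celf1* −/− against 1.61 and 2.54 FPKM in *Celf1* +/+. The libraries were made from polyadenylated RNA, and the mature miRNA was not measured. *2810002D19Rik* (chr2:94246308-94251839, plus strand, annotated as a lincRNA) measured 1.96 and 2.04 FPKM against 3.51 and 4.60 FPKM, with a log2 fold change of −0.996 (SE 0.174, adjusted p = 0.103, quasi-likelihood test). It shares 183 of its 2040 exon bases with *Ttc17* on the other strand. An unnamed gene just before *Cd59a* measured 1.31 and 1.82 FPKM against 2.59 and 2.26 FPKM. The genotypes did not overlap for any of the 3 features.

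*Pamr1* (chr2:102390169-102483198, plus strand), a secreted protein with a peptidase domain linked to muscle regeneration, measured 3.97 and 3.25 FPKM in *Celf1* −/− against 6.67 and 6.74 FPKM in *Celf1* +/+, and 1.79 FPKM at PN38. Both *Celf1* −/− libraries were lower, with a log2 fold change of −0.87 (SE 0.131, adjusted p = 0.0907, quasi-likelihood test). The summed FPKM of 5 fibroblast genes was 700.0 and 681 against 826 and 965 (4 of 5 lower without overlap). That of 3 macrophage genes was 5.11 and 6.14 against 10.3 and 11 (3 of 3 lower). These markers too were named only from the lists of changed genes, so the counts are not independent evidence. The part of these cell types in the *Pamr1* difference was not tested. *Cd44*, the hyaluronan receptor, is 3 gene numbers further on and was higher, with 7.09 and 6.93 FPKM against 5.62 and 4.56 FPKM.

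At the far end of the stretch, 3 named genes that lie close together were lower. *Bmf* (chr2:118354493-118375423, minus strand), a BH3-only protein that promotes apoptosis, measured 2.07 and 2.83 FPKM in *Celf1* −/− against 5.02 and 8.29 FPKM in *Celf1* +/+, with a log2 fold change of −1.42 (SE 0.261, adjusted p = 0.105, quasi-likelihood test). *Pak6* (chr2:118489039-118523756, plus strand), a p21-activated kinase, measured 4.49 and 3.77 FPKM against 8.31 and 7.30 FPKM. *A430105I19Rik* (chr2:118579894-118588397, minus strand) measured 3.47 and 3.04 FPKM against 5.20 and 5.06 FPKM. All 3 were lower in both *Celf1* −/− libraries, and the exact test gave adjusted p of 3.26e-08, 2.51e-07 and 0.00153. Interspersed with them, *Bub1b*, a kinase of the spindle checkpoint, measured 18.6 and 22.6 FPKM against 21.1 and 16.9 FPKM and overlapped.

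A gene known only by a clone name, between *Bmf* and *Bub1b*, measured 7.49 and 13.3 FPKM against 13.1 and 25.6 FPKM, a ratio of 1.86 with overlapping libraries, and is among the 10 that the exact test called. An unnamed gene, 420 gene numbers after *Celf1*, measured 0.73 and 0.55 FPKM against 1.01 and 1.03 FPKM. The first gene beyond the stretch, *Ivd*, an enzyme of leucine breakdown 27.8 Mb after *Celf1*, was also lower. It measured 28.7 and 30.7 FPKM against 55.5 and 57.2 FPKM, with a log2 fold change of −0.91 (SE 0.0578, adjusted p = 0.0465, quasi-likelihood test). The paper lists *Ivd* among its down-regulated genes. It also reports a splicing event of *Ivd* with less inclusion in *Celf1* −/−, by RNA-seq and by RT-PCR.

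Before *Celf1*, 2 genes reached 1.5 fold. *Osbpl6* (chr2:76244565-76438704, plus strand, 14.3 Mb before *Celf1*), of the oxysterol-binding protein family of lipid transporters, measured 0.46 and 0.61 FPKM in *Celf1* −/− against 1.03 and 1.34 FPKM in *Celf1* +/+, and 2.51 FPKM at PN38. Its log2 fold change was −1.13 (SE 0.198, adjusted p = 0.104, quasi-likelihood test), and it passed the filter in *Celf1* +/+ only. *Aplnr* (chr2:84976517-84980079, plus strand, 5.80 Mb before *Celf1*), the receptor of the peptide apelin, measured 28.0 and 49.2 FPKM in *Celf1* −/− against 61.5 and 63.2 FPKM in *Celf1* +/+. The *Celf1* −/− libraries of *Aplnr* lay further apart from each other than replicate 2 did from *Celf1* +/+, and its log2 fold change was −0.68 (SE 0.245, adjusted p = 0.193, quasi-likelihood test).

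**Figure D3:**
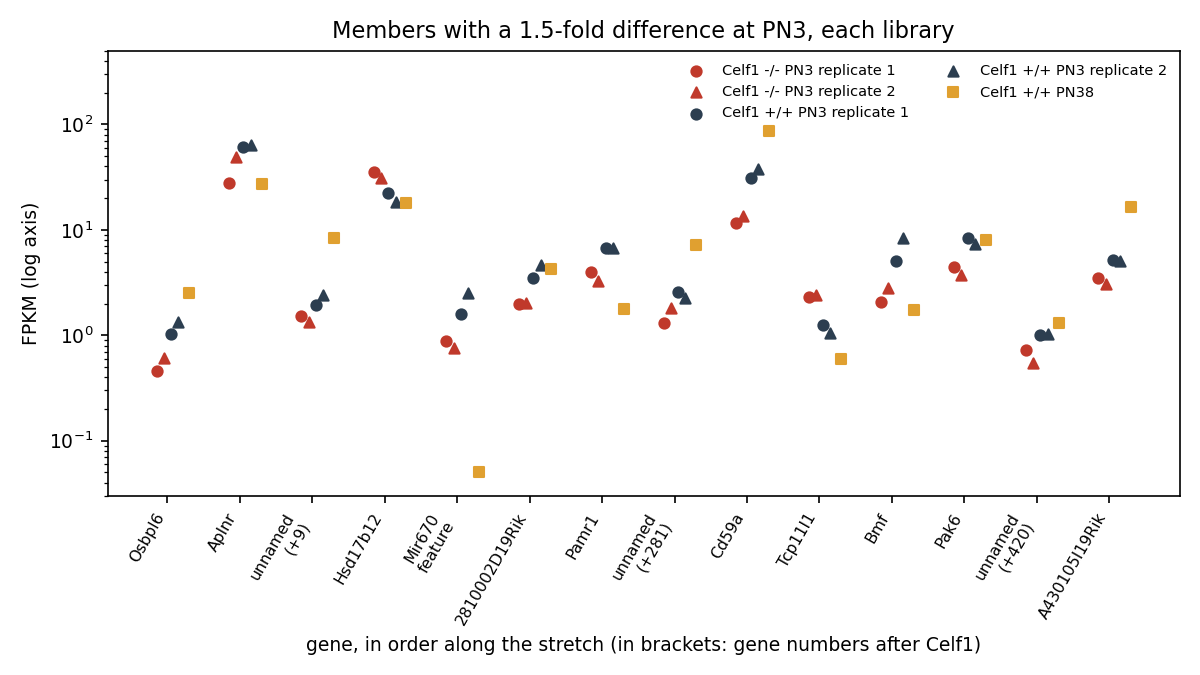
FPKM on a log axis for each of the 14 genes at least 1.5 fold apart without overlap, in order along the stretch, with 1 point per library. Red points are *Celf1* −/− at PN3, dark points *Celf1* +/+ at PN3 and yellow squares the single *Celf1* +/+ library at PN38. The red points sit above the dark ones only for *Hsd17b12* and *Tcp11l1*.

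The named genes were also read by their roles. The names come from lists of genes that differed in these same libraries, 23 from the comparison at PN3 and 23 from development only, so these counts are not independent evidence of a direction, and 0 members of the lists were called by the quasi-likelihood test. Of 8 named genes on a list for the cell cycle and chromatin, 6 were higher in *Celf1* −/− without overlap and 0 lower. All 6 were at an unadjusted p below 0.05 (quasi-likelihood test), and the median log2 ratio of the 8 was 0.34. The all-gene shares without overlap are those given above. *Arhgap11a*, a GTPase activating protein that is expressed in dividing cells, measured 18.8 and 21.1 FPKM against 15.6 and 11.9 FPKM. *Cdca7*, a chromatin factor of dividing cells, measured 13.4 and 12.0 FPKM against 10.1 and 8.16 FPKM. *Hat1*, a histone acetyltransferase, measured 60.7 and 54.8 FPKM against 49.5 and 43.4 FPKM. The others higher were *Kif18a*, a mitotic kinesin, *Ccdc34* and the RNA-binding *Hnrnpa3*, the last not of these roles. Their ratios were 1.36, 1.29 and 1.13, and *Bub1b* and *D2Ertd750e* overlapped. None of the 8 reached 1.5 fold. Just outside the other end of the stretch, the kinetochore gene *Spc25* measured 50.6 and 54.1 FPKM against 37.8 and 25.7 FPKM.

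Of 4 named genes listed for muscle, 3 were lower without overlap and 1 higher. *Kbtbd10*, a kelch protein of the sarcomere, measured 23.2 and 28.3 FPKM against 30.2 and 35.3 FPKM, *Ccdc141* 42.0 and 41.7 FPKM against 51.4 and 56.4 FPKM, and *Rapsn* is given above. *Sestd1*, a protein with Sec14 and spectrin domains, was higher, at 13.6 and 13.9 FPKM against 9.91 and 10.4 FPKM. Of 4 named genes on a list for lipid, peroxisome and mitochondrial roles, *Osbpl6* was lower, and *Hsd17b12*, *Agps* and *Slc43a1*, the last not of these roles, were higher. *Agps*, which makes ether lipids in peroxisomes, measured 14.2 and 14.2 FPKM against 10.99 and 10.2 FPKM. *Slc43a1*, an amino acid transporter, measured 2.20 and 2.15 FPKM against 1.80 and 1.70 FPKM.

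Of 5 named genes of complement, proteases and the cell surface, *Cd59a*, *Pamr1* and *Prrg4* were lower without overlap, *Cd44* was higher, and *Tspan18*, a tetraspanin, overlapped. Among these, *Prrg4* had passed the filter in *Celf1* +/+ only. Of 7 named receptors and signalling genes, *Aplnr* and *Pak6* were lower and 2 were higher, namely *Kcna4*, a potassium channel, at 1.86 and 2.11 FPKM against 1.73 and 1.63 FPKM, and *Fjx1*, a secreted kinase-like protein, at 2.08 and 1.79 FPKM against 1.55 and 1.29 FPKM. Of the 2 genes listed for apoptosis, *Bmf* was lower and *Ddb2* overlapped. *B230120H23Rik*, also named from the PN3 comparison, was higher, at 40.6 and 41.9 FPKM against 32.1 and 28.6 FPKM. Of the named genes before *Celf1* that the lists do not hold, *Ctnnd1*, encoding a catenin of cell junctions, overlapped. *2700094K13Rik* was higher in *Celf1* −/− with a ratio of 1.10. *Lrrc55* was lower with a ratio of 1.30, and it had passed the filter in *Celf1* +/+ only. *Chst1*, a sulfotransferase that follows the second gap, was lower with a ratio of 1.25.

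The stretch was next set beside 32 other blocks of the same number of genes laid end to end over the tables, in which 239 to 459 genes were tested. The share of genes at least 1.5 fold lower without overlap ran from 0.288% to 4.97% in these blocks, with a median of 2.56%, and 0 of the 32 reached the 5.88% of the stretch. Among genes that passed the filter in both genotypes the stretch had 4.57%, beside 2.08% of all such genes, and the blocks 0.297% to 3.83%. The block with 4.97% was the one that follows the stretch on chromosome 2 and opens with *Ivd*. The block before the stretch, part of it on chromosome 19, had 3.94%. In the other direction, its 0.980% of higher genes was reached or exceeded by 22 of the 32 blocks, whose highest share was 3.81%. With both directions together the stretch had 6.86%, and 1 block, again the next one on chromosome 2, was higher with 7.31%.

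The place of the stretch among the blocks moved with the measure. By the exact test its 4.90% of genes called lower exceeded all 32 blocks (highest 3.8%), while by DESeq2 its 3.43% was reached by 4 blocks (highest 4.39%). An unadjusted p below 0.05 in either direction was found for 31.9% of its genes, and for 17.0% to 30.1% in the blocks. These shares include genes that passed the filter in *Celf1* +/+ only, and they were not recomputed without such genes. Block edges were also moved to the middle of the blocks, leaving out blocks that would overlap the stretch. The highest share of lower genes was then 5.10%, and 0 of the 32 remaining blocks reached the stretch. The blocks left out, which would hold parts of the stretch and of its neighbours, were not measured. The stretch also had fewer tested genes than any block, so 1 gene moves its share more. Blocks are not independent samples, and no test was made of these ranks.

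**Figure D4:**
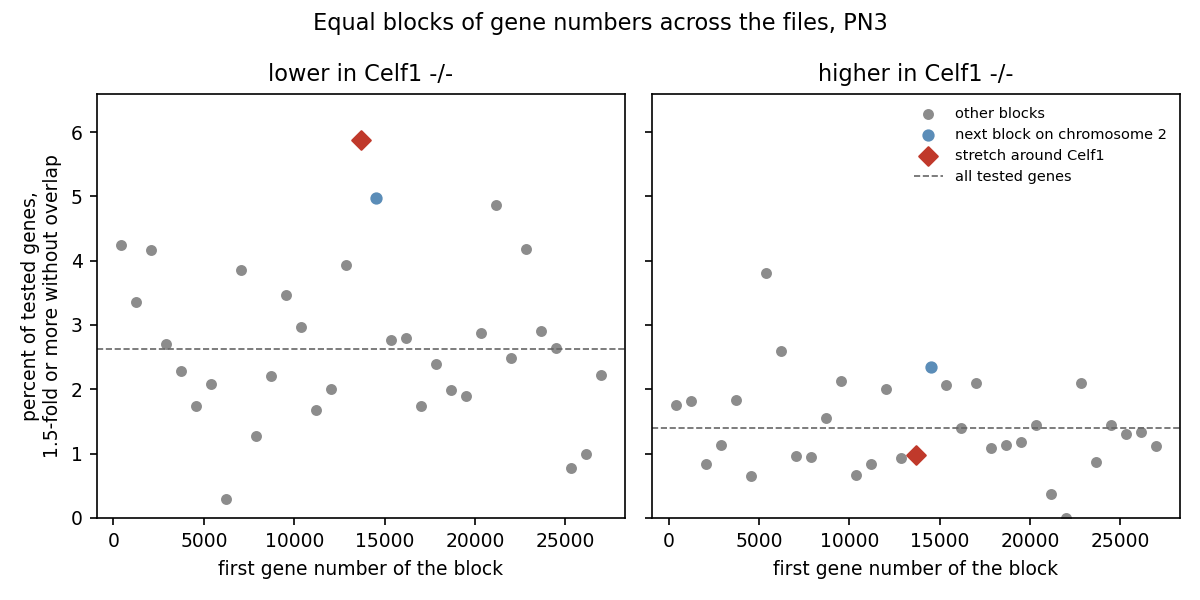
Each point is a block of consecutive gene numbers, equal in length to the stretch, placed by its first gene number (x axis), with the percent of its tested genes at least 1.5 fold lower (left) or higher (right) in *Celf1* −/− at PN3 without overlap. The red diamond is the stretch around *Celf1*, at 5.88% lower and 0.980% higher, the blue point the next block on chromosome 2, and the dashed line the share over all tested genes, 2.63% and 1.40%.

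Between PN3 and PN38 in *Celf1* +/+ ventricles the stretch had shares near those of all genes. By the quasi-likelihood test with an adjusted p below 0.05 and 2 fold on normalised counts, 21 of the 204 genes were lower at PN38 (10.3%, beside 11.5% of the 12915 genes tested for that comparison) and 21 higher (10.3%, beside 12.8%). The 12915 include genes that passed the filter only at PN38, and the 204 do not, so these shares rest on unlike sets of genes. With 1 library at PN38, the spread came from the PN3 libraries. On FPKM the median log2 ratio over all genes was −0.47, and with the fold taken from FPKM the counts were 44 lower and 12 higher. All 21 lower genes carry a name, against 3 of the higher ones, and the developmental list used for naming was available in part.

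The lower genes at PN38 included *Mdk*, which fell from 67.3 and 81.0 FPKM to 3.03 FPKM, and genes of dividing cells. *Bub1b* fell from 21.1 and 16.9 FPKM to 1.04 FPKM, *Arhgap11a* from 15.6 and 11.9 FPKM to 0.84 FPKM and *D2Ertd750e* from 20.3 and 15.3 FPKM to 0.64 FPKM. These log2 fold changes were −4.15, −3.74, −3.61 and −4.35. The 3 named genes that rose were *Cd59a*, *A430105I19Rik* and *Osbpl6*, with log2 fold changes of 1.78, 2.14 and 1.51.

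Both comparisons use the same *Celf1* +/+ libraries at PN3, so their values are given side by side without a test. Of the 14 genes at least 1.5 fold apart between genotypes, 5 were called higher at PN38 and 3 lower. *Cd59a*, *Osbpl6*, *A430105I19Rik* and 2 unnamed genes were lower in *Celf1* −/− at PN3 and higher at PN38. *Bmf* (1.72 FPKM at PN38), *Pamr1* and the feature with *Mir670* (0.05 FPKM at PN38) were lower in both. The other 6 were not called between ages. *Aplnr* was one of them, at 27.3 FPKM at PN38 with a log2 fold change of −0.75, as was *Pak6* at 7.94 FPKM.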

How the data were processed

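RNA-seq of ventricles was analysed in 5 libraries. The authors aligned reads to mm9 with TopHat and estimated levels with RSEM. Per the labels, the submitters' notes name TopHat2 2.02 and RSEM 1.2.4. The deposited expected counts are fragments assigned to each gene, split where they fit several genes. The deposited FPKM scale them to effective length and library total. The TPM were not used. The kit does not mark strand.

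Gene names came from the paper's list of changed genes, by exact match of FPKM to 1 gene (2634 of 28416 genes), and mm9 positions from GENCODE vM1 (2442 named genes). Genes are numbered along the chromosomes. The members and lists were chosen with earlier results of these data known. Named in the text are members named from the PN3 comparison, the nearest others and members of lists.

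Expected counts were rounded and tested with edgeR 4.0.16 (R 4.3.3, limma 3.58.1; TMM, glmQLFit and glmQLFTest at default settings, Benjamini-Hochberg). At PN3 the 4 PN3 libraries entered, with genotype as the only factor, for genes that passed the filter at 1 FPKM. For PN38 all 5 entered, with genes of at least 1 FPKM at PN38 added. Fold ratios at PN3 are of mean FPKM. edgeR's exact test and DESeq2 1.42.0, other filters, thresholds and blocks, a replicate block and fits without 1 library were alternatives. The tests were tested on simulated data. Total counts were 108044284 to 139769909. Counting error was not measured for each gene and weighs more for genes near 1 FPKM. Tables and plots used Python 3.11.15 with pandas 2.3.3 and matplotlib 3.10.9.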

Additional observations from a re-analysis of the deposited data

How the results depend on the processing

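The quasi-likelihood test called 0 members in either direction. Lower calls were 10 by the exact test, 7 by DESeq2, 1 with no filter on FPKM, 1 at FPKM of at least 5, 1 with all 5 libraries in the fit, and 12 at an adjusted p below 0.2, and they ranged from 0 to 2 with 1 library left out (2 without *Celf1* −/− replicate 2 and 2 without *Celf1* +/+ replicate 1). Higher calls were 2 by the exact test, 2 by DESeq2 and 2 at an adjusted p below 0.2. RLE normalization, fold from normalised counts, no fold threshold and glmQLFit with legacy = FALSE, the last chosen after seeing the data, gave 0 in both directions. The planned fit with legacy = TRUE is the default here and gave no separate value. With the replicate number as a block, 1 member, *Cd59a*, was called lower and 0 higher. Same-numbered libraries correlated at 0.192 in their deviations from the group means across genes, over 2 pairs only, and the labels do not say that a number marks a litter or batch. Genes at least 1.5 fold lower without overlap (12) were 5 at 2 fold, 6 at FPKM of at least 5 and 1 within 200 gene numbers of *Celf1*, and 11 to 14 with 1 library left out. Higher ones (2) were 1, 1 and 0, and 1 to 7. Among genes that passed the filter in both genotypes, an alternative chosen after seeing the data, they were 9 and 2. The percent changed in the stretch (6.86) was 31.9 by unadjusted p and 5.88 by the exact test. At PN38, 21 lower and 21 higher became 44 and 12 with the fold from FPKM, and 20 to 22 lower and 21 to 25 higher with 1 library left out. Over 328 alternatives for 41 named members, 274 kept direction and side of the threshold, 41 kept direction and passed the threshold, and 13 changed direction. With 1 library left out, these ranged from −0.0522 to 0.0105 (*Ctnnd1*), −0.1215 to 0.0434 (*Fnbp4*), −0.0149 to 0.2128 (*Ddb2*), −0.0156 to 0.0435 (*Zfp408*), −0.019 to 0.1263 (*Arhgap1*), −0.1733 to 0.0625 (*Mdk*), −0.1531 to 0.0842 (*Prr5l*) and −0.0314 to 0.3169 (*Bub1b*), and on the ratio of mean FPKM *Zfp408* was −0.003. The causes of these changes were not tested.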
